A study of Pimephales promelas with 338 samples.

Results

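hspa5 and ero1a are 2 of the 1829 genes on a targeted panel that was read in whole fathead minnow larvae (Pimephales promelas) after exposure to chemicals for 24 h. They were taken from the panel by their symbols, and the choice of both used values measured in these libraries. hspa5 stood out in earlier results by its level in the solvent libraries of the 6 exposures and by its level after caffeine in the QA libraries, so those values are given as a description, with no test. What led to ero1a is not recorded, and its highest values lie in 2-tert-butyl-4-methoxyphenol, so that contrast is a description too.

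Each exposure held a pair of chemicals on 3 plates (A, B and C), and a library is the pooled homogenate of the larvae of a treatment on a plate, nominally 5, with dead larvae left out. The 12 chemicals were paired as metolachlor OA with 3,4-dichlorophenyl isocyanate, 1(2H)-phthalazinone with gabapentin, metribuzin-DA with 2-tert-butyl-4-methoxyphenol, hydrochlorothiazide with 4-chlorophenyl methyl sulfoxide, cetirizine with fipronil amide, and fexofenadine with cis-nonachlordane. Each was given at 8 dose codes (D1 to D8) in dimethyl sulfoxide (DMSO), from 66.67 down to 0.021 µM for most, with a highest concentration of 56.43 µM for fipronil amide and 32.2 µM for fexofenadine. Whether D1 or D8 was the strongest dose is not stated, and since codes were laid out by row of the library plate, code and row cannot be told apart. The groups were 286 chemical libraries (3 per code, but 1 for D1 of 2-tert-butyl-4-methoxyphenol), 18 DMSO and 18 caffeine libraries on the exposure plates (3 of each per exposure), and 8 DMSO and 8 caffeine QA libraries.

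The lumen of the endoplasmic reticulum (ER) is where secreted and membrane proteins fold. hspa5 encodes BiP (GRP78), the abundant Hsp70-type chaperone of that lumen, which in mammals also holds the stress sensors of the unfolded protein response inactive and is itself among the standard genes that this response induces. ero1a encodes the oxidase that re-oxidises protein disulfide isomerases, so that they can go on forming disulfide bonds. In mammals ERO1A is also induced by hypoxia. A whole larva averages these genes over every tissue, and in such bulk RNA fewer cells of a type and less RNA per cell cannot be told apart.

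Library totals ran from 112247 to 1029511 counts (median 609598). The hspa5 probe had a median of 951.5 counts per library (191 to 3439). The ero1a probe had a median of 6 (0 to 171), with 82 of 338 libraries at 3 counts or fewer, so counting error weighs heavily on ero1a wherever it is not raised. Levels below are counts scaled to the library total (CPM), and the levels of both genes are not compared with each other, since each is read by its own probe. Markers of liver, exocrine pancreas, skin with cartilage and bone, intestine, blood and nervous system were all detected, by 3 to 9 panel genes each, while 0 of 21 listed skeletal muscle markers are on the panel.

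In DMSO alone, the level of hspa5 depended on the exposure. In the exposure of hydrochlorothiazide and 4-chlorophenyl methyl sulfoxide the 3 DMSO pools read 2930, 3321 and 2859 CPM (plates A, B and C; mean 3037 ± 249, SD, n = 3). In that of fexofenadine and cis-nonachlordane they read 2350, 2372 and 1402 CPM (2041 ± 554). The other 4 lay lower, with means of 1447 ± 254 CPM (cetirizine and fipronil amide), 1430 ± 353 (metribuzin-DA and 2-tert-butyl-4-methoxyphenol), 1423 ± 126 (metolachlor OA and 3,4-dichlorophenyl isocyanate) and 1153 ± 75.5 (1(2H)-phthalazinone and gabapentin). All 3 pools of the hydrochlorothiazide exposure were above every DMSO pool of the other exposures, whereas the remaining neighbours in this order mostly overlapped. The only gap among those was between 1(2H)-phthalazinone and gabapentin, at most 1203 CPM, and metolachlor OA and 3,4-dichlorophenyl isocyanate, at least 1334 CPM.

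The chemical and caffeine libraries of the same exposures had a like order at the top. The 48 chemical libraries of the hydrochlorothiazide exposure had a median of 2600 CPM (1595 to 4042), followed by 1954 CPM (1043 to 5386) in the fexofenadine exposure. Medians of the other 4 exposures were 1228 to 1481 CPM. Caffeine pools averaged 2222 ± 518 CPM in the hydrochlorothiazide exposure and 1651 ± 325 CPM in the fexofenadine exposure, against means of 1145 to 1511 CPM elsewhere (n = 3 each). The exposures differ in larvae, plates and positions at once, which cannot be told apart. The DMSO pools of the hydrochlorothiazide exposure all stood in row G of the library plates. In the QA set, DMSO libraries in row G read 1610, 1602, 1522 and 1726 CPM and those in rows A and C read 1560, 1686, 1706 and 1806 CPM, with overlapping ranges.

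**Figure D1:**
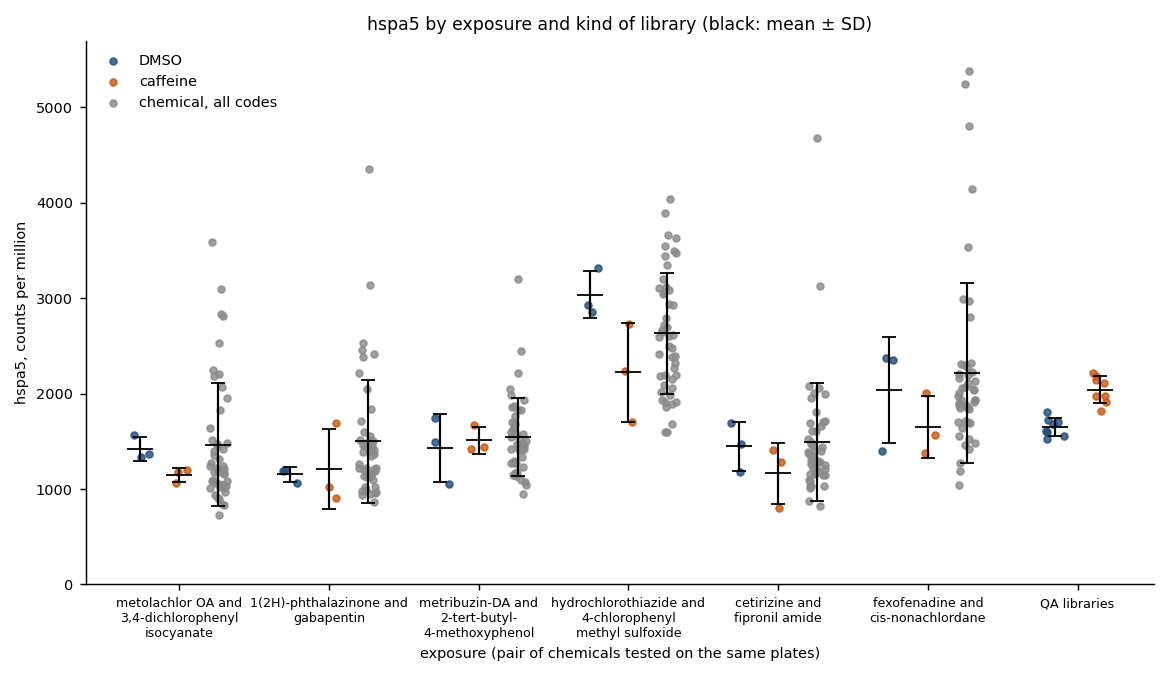
hspa5 in CPM (y axis) for each library, by exposure (x axis) and kind of library, with the mean and SD in black. The exposure of hydrochlorothiazide and 4-chlorophenyl methyl sulfoxide is highest for all 3 kinds of library, and single chemical pools reach 5386 CPM.

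The caffeine difference of hspa5 had opposite signs in the QA set and on the plates, and the contrast between both sets was not tested. The 8 QA caffeine libraries read 1820 to 2217 CPM (median 2045, mean 2043 ± 143), and the 8 QA DMSO libraries 1522 to 1806 CPM (median 1648, mean 1652 ± 94.8). Every QA caffeine library was above the highest DMSO library, a fitted log2 difference of 0.32 ± 0.05 (SE) that chose the gene and is not tested here. On the plates, caffeine was above DMSO in 5 of 18 pairs of the same plate, with a fitted difference of -0.19 ± 0.08 log2, which also stood beside the choice of the gene and carries no p. The mean of the caffeine pools was lower than that of DMSO in 4 exposures (-0.45 to -0.31 log2) and slightly higher in the exposures of 1(2H)-phthalazinone (0.07) and metribuzin-DA (0.08). Separate exposures behind the QA libraries are not stated, and their spread may be technical. Intestine markers, 3 genes summed, also stood higher in QA caffeine (1627 to 2050 CPM) than in QA DMSO (1402 to 1594 CPM), and blood markers likewise (126 to 168 against 73.2 to 123 CPM). For exocrine pancreas the QA caffeine median was lower (17424 against 18256 CPM), as for nervous system (2339 against 2528 CPM). Skin with cartilage and bone likewise had the lower median (54100 against 57977 CPM), and liver the higher (111391 against 104851 CPM). The ranges of these other sets overlapped. The part of the markers in the hspa5 difference was not tested.

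Across dose codes, hspa5 did not pass the test for a trend in any of the 12 chemicals. The trend is a slope in log2 units per step of the code towards D1, tested over all genes of a chemical with edgeR's quasi-likelihood test and Benjamini-Hochberg adjustment at 0.05. Slopes of hspa5 ran from -0.08 to 0.09, with 3 of 12 below an unadjusted p of 0.05, and DESeq2 also called 0. The background was uneven. Of the genes tested, 27.2% had a called trend in 2-tert-butyl-4-methoxyphenol and 18.7% in 3,4-dichlorophenyl isocyanate, against 0.202% in cetirizine, 0.0629% in metribuzin-DA and 0% in the other 8. The DMSO levels that chose hspa5 are the reference of the comparisons code by code, whose count is therefore a description. Against DMSO, hspa5 was called at 0 of 96 codes by edgeR and by DESeq2 (7 and 5 below an unadjusted p of 0.05), where the share of genes called at some code was 14.7% in 2-tert-butyl-4-methoxyphenol, 4.25% in the isocyanate, 0.068% in fexofenadine, 0.0629% in metribuzin-DA and 0% in the remaining 8.

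The 3 steepest hspa5 slopes belonged to 2-tert-butyl-4-methoxyphenol, cetirizine and hydrochlorothiazide. For 2-tert-butyl-4-methoxyphenol, a phenolic antioxidant, the single D1 pool read 2450 CPM. The D2 pools read 3203, 1871 and 1415 CPM, and the DMSO pools 1050, 1494 and 1747 CPM. The plate A pools of D1 and D2 were far above DMSO, while plate C of D2 lay inside the DMSO range. The slope was 0.09 ± 0.03 (SE; adjusted p = 0.0618, edgeR). It was 0.11 without plate C (adjusted p = 0.0125) and 0.03 without plate A (adjusted p = 0.737), so the call rested on which plate was left out.

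For hydrochlorothiazide, a thiazide diuretic, hspa5 read 1862, 1910 and 1930 CPM at D1 and 2393, 1595 and 2323 CPM at D2, below all 3 DMSO pools of 2859 to 3321 CPM. The log2 differences were -0.69 ± 0.24 and -0.54 ± 0.24. These DMSO pools are the high ones that helped to choose hspa5, so the differences are a description. Cetirizine, an antihistamine, gave a slope of -0.08 ± 0.03 (adjusted p = 0.557), with D1 pools of 1308, 1200 and 1274 CPM and D8 pools of 2076, 1809 and 1711 CPM. These D1 and D8 pools did not overlap. The D1 pools lay within the DMSO range of 1182 to 1688 CPM, and all 3 D8 pools lay above it. DMSO levels helped to choose hspa5, so this too is a description.

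**Figure D2:**
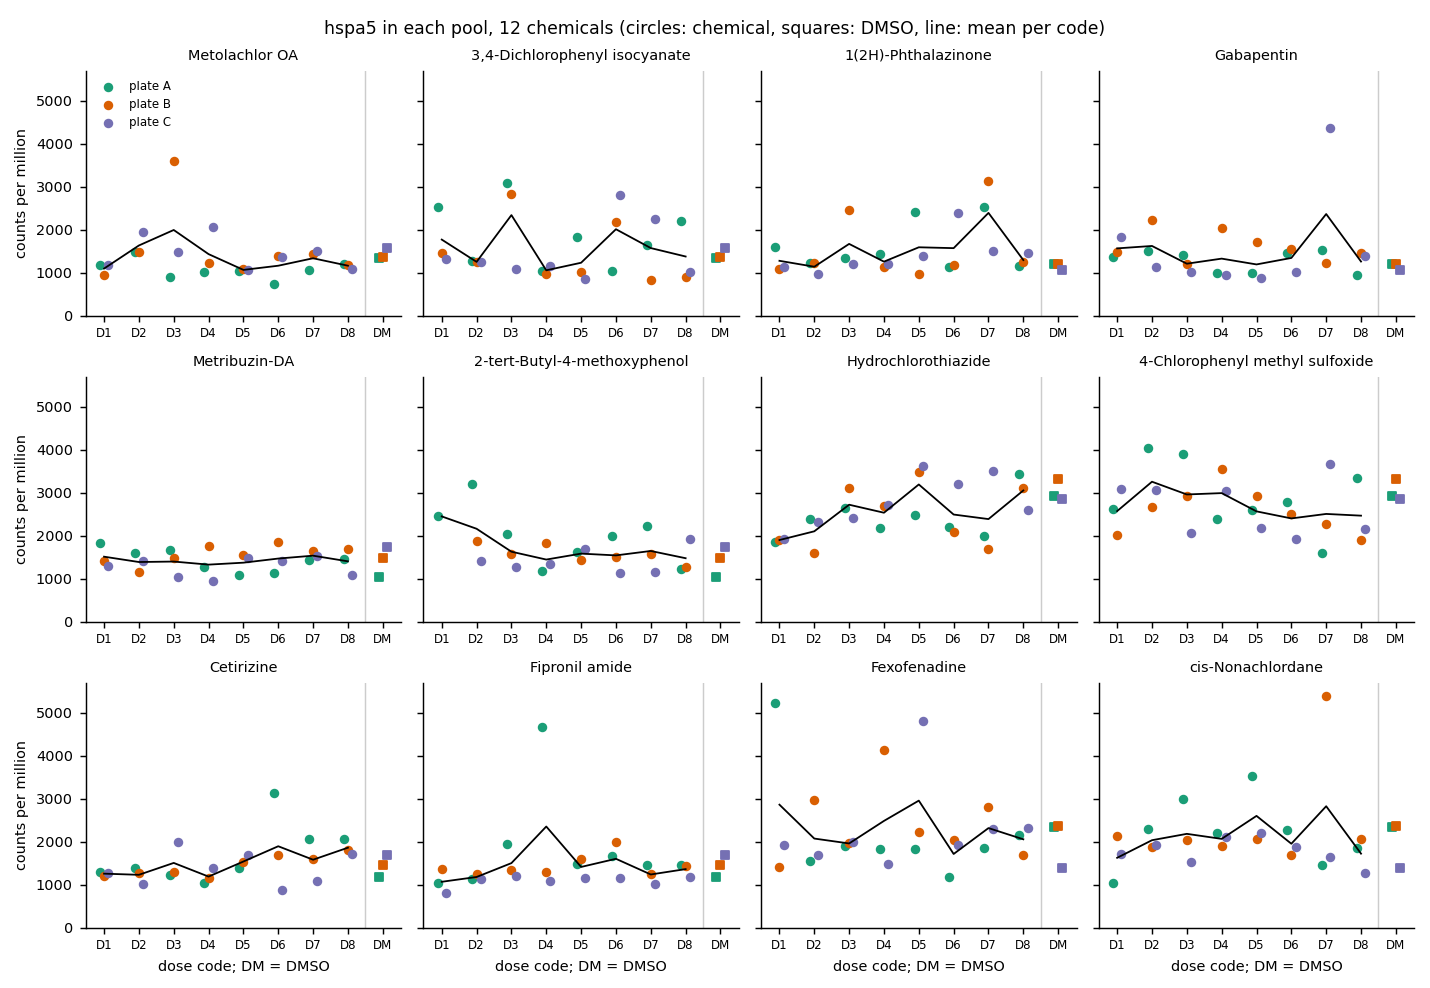
hspa5 in CPM (y axis) for every pool of the 12 chemicals by dose code (x axis), coloured by plate, with DMSO of the same exposure at the right and the mean per code as a line. Lone pools stand high at codes that differ between chemicals, such as plate B of cis-nonachlordane at D7 (5386 CPM).

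The spread of hspa5 between libraries of the same treatment was wide on the exposure plates and narrow in the QA set. Its SD within groups on the log2 scale was 0.44 over 322 plate libraries, above that of 82.8% of 1479 genes (median 0.29). In the 16 QA libraries it was 0.10, with 4.67% of genes smaller (median 0.26). Separate exposures behind the QA libraries are not stated, so that spread may be technical. The shares are not matched for counts, and genes with few counts spread more by counting error. In 23 of 95 chemical triplets the highest hspa5 pool was more than 2-fold above the lowest. Of the 134 genes with a mean of at least 500 counts, 0 had more such triplets than hspa5, and the median gene had 0. These triplets were found in 11 of the chemicals, most in 3,4-dichlorophenyl isocyanate (5 of 8) and 1(2H)-phthalazinone (4 of 8), and in 0 of 8 for metribuzin-DA.

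The triplet with the widest range was fipronil amide at D4, with 4685, 1299 and 1089 CPM on plates A, B and C. Metolachlor OA at D3 came next with 897, 3594 and 1485 CPM, then fexofenadine at D1 with 5243, 1419 and 1936 CPM. The high pool was on plate A, B and A in these 3, each from another exposure, so the letters name different plates. The part of the plate was not tested. At D7 of 1(2H)-phthalazinone the pools read 2529, 3140 and 1501 CPM, and at D7 of gabapentin 1515, 1218 and 4356 CPM, against DMSO pools of 1066 to 1203 CPM. The log2 differences were 1.03 ± 0.37 and 1.00 ± 0.37, against the lowest of the 6 DMSO groups that helped to choose hspa5, so they too are a description. In gabapentin plates A and B were little above those DMSO pools.

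Across the 322 plate libraries, other genes varied along with hspa5. After the mean of each exposure was subtracted, the 5 of 1478 genes with the highest Pearson correlation to hspa5 in log2 CPM were gale (r = 0.72), pdia6 (0.68), pmm2 (0.62), hyou1 (0.61) and gadd45aa (0.59), with Spearman's rho of 0.60, 0.60, 0.44, 0.52 and 0.34. gale encodes the epimerase that makes UDP-galactose, pmm2 makes mannose 1-phosphate for protein glycosylation, pdia6 is a protein disulfide isomerase of the ER, hyou1 is a large ER chaperone that acts as exchange factor for BiP, and gadd45aa belongs to a family of stress-induced growth arrest genes. With group means subtracted instead, so that treatment differences drop out, r was 0.70, 0.72, 0.60, 0.62 and 0.60. These correlations describe libraries that share plates, and carry no p.

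The widest triplets show the pattern pool by pool. The triplets were picked by hspa5, and the 5 genes by their correlation with it over libraries that include these pools. Their values here are therefore a description. At D4 of fipronil amide, hyou1 read 172, 93.6 and 84.5 CPM on plates A, B and C, and pdia6 537, 317 and 295 CPM. gadd45aa read 598, 187 and 194 CPM there. At D3 of metolachlor OA, gale read 85.5, 332 and 145 CPM, and pmm2 109, 225 and 131 CPM. In both triplets the pool that was highest for hspa5 was highest for these genes as well. Of the 23 other ER folding genes that were measured well enough, 22 had a positive correlation with hspa5 (median r = 0.18, against -0.01 for all genes), and p4hb, a further disulfide isomerase, stood at 0.45. The median r with hspa5 was 0.15 for the cytosolic heat shock list (5 of 7 positive) and 0.09 for the hypoxia list (7 of 8), and the difference between the lists was not tested. ero1a had r = 0.25 with hspa5. The correlation of hspa5 with summed markers was -0.26 for exocrine pancreas, -0.19 for intestine, -0.21 for both skin with cartilage and bone and the nervous system, 0.09 for blood and 0.00077 for liver, and with the log2 library total it was -0.04.

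**Figure D3:**
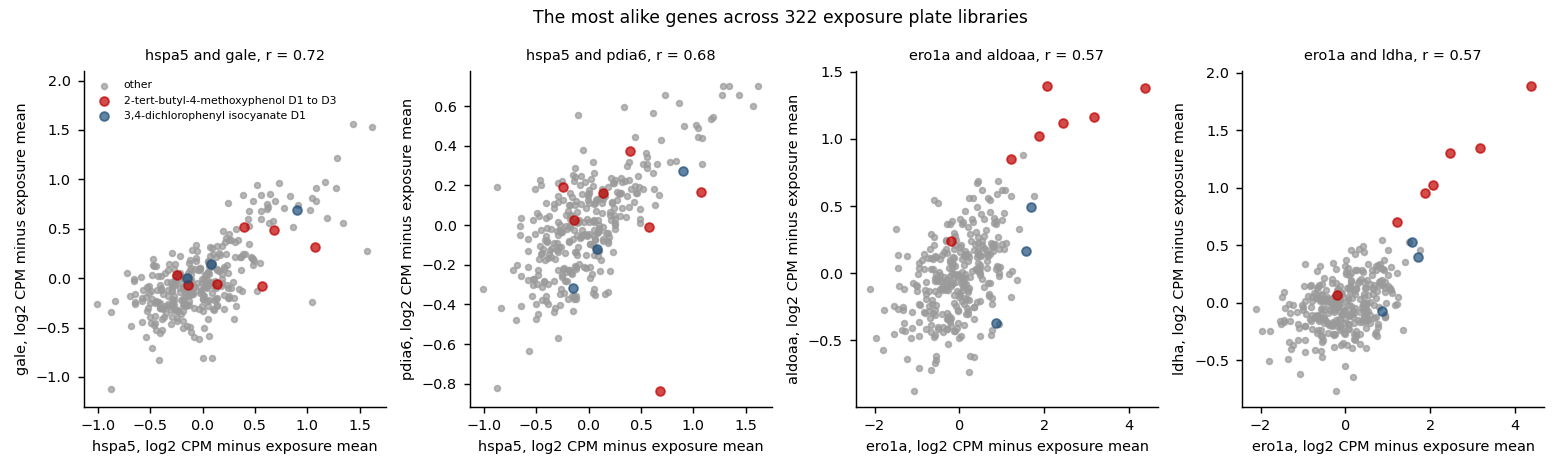
Log2 CPM minus the exposure mean in 322 plate libraries, for hspa5 (x axis of the left 2 panels) against gale and pdia6, and for ero1a (x axis of the right 2 panels) against aldoaa and ldha. Points for hspa5 spread along a slope in all treatments (r = 0.72 and 0.68), while for ero1a the red points of 2-tert-butyl-4-methoxyphenol D1 to D3 lie mostly beyond the rest (r = 0.57 for both).

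ero1a was low in DMSO in every exposure. Means of the 3 DMSO pools ran from 7.36 ± 1.17 CPM (1(2H)-phthalazinone and gabapentin) through 7.85 ± 7.50, 8.09 ± 4.11, 8.52 ± 5.09 and 10.8 ± 6.70 to 14.3 ± 6.63 CPM (cetirizine and fipronil amide). The single pools lay between 1.55 and 20.4 CPM and the ranges of all 6 exposures overlapped. At counts this low, the overlap cannot show whether ero1a differed between exposures. Over all 286 chemical libraries the median was 9.31 CPM.

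The largest ero1a levels were those of 2-tert-butyl-4-methoxyphenol. The single D1 pool (plate A) read 320 CPM, from 171 counts. The D2 pools read 139, 77.0 and 55.4 CPM on plates A, B and C, the D3 pools 56.2, 31.0 and 10.5 CPM, and the DMSO pools 10.3, 17.7 and 4.35 CPM. D1 and D2 were above every DMSO pool, and D4 to D8 lay between 1.39 and 20.4 CPM. Each D3 pool was above the DMSO pool of its own plate, but that of plate C lay within the range of the DMSO pools. The fitted log2 differences from DMSO were 4.83 ± 0.63 at D1 (28.5-fold), 3.06 ± 0.57 at D2 (8.33-fold) and 1.71 ± 0.62 at D3 (3.27-fold). From D4 to D8 they lay between -0.17 and 0.24. The slope was 0.66 ± 0.07 per step, 0.47 ± 0.08 without D1 and 0.36 ± 0.10 without plate A. No p is given, since these values were taken to have led to the gene. D1 rests on 1 pool, and its SE borrows the spread of the other groups.

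In the same pools the tissue markers moved too. Summed intestine markers were 309 CPM at D1, 845 to 930 CPM at D2 and 1254 to 1475 CPM in DMSO. Exocrine pancreas markers were 5547 CPM at D1, 8741 to 12305 CPM at D2 and 13421 to 16140 CPM in DMSO, and liver markers 78955, 107408 to 147110 and 110557 to 122102 CPM. Blood markers were 118 CPM at D1, inside the DMSO range of 68.1 to 180 CPM, and 118 to 591 CPM at D2. At D1 markers of skin with cartilage and bone (36298 against 49541 to 53126 CPM in DMSO) and of the nervous system (1692 against 2234 to 2533 CPM) were lower as well. Their part in the ero1a values was not tested.

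**Figure D4:**
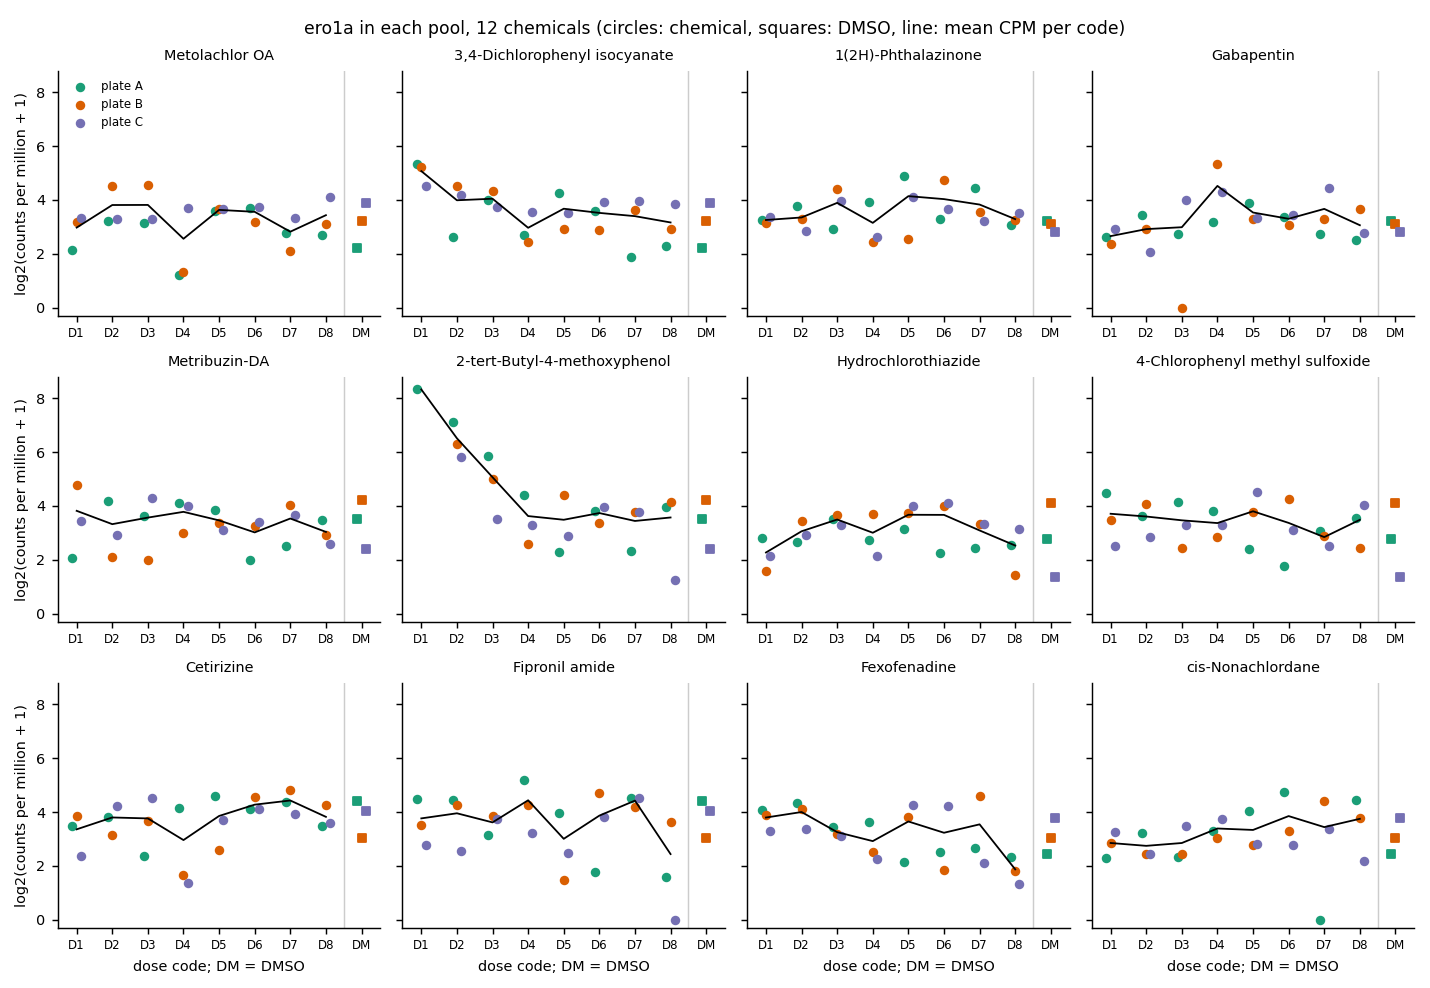
ero1a as log2(CPM + 1) (y axis) for every pool of the 12 chemicals by dose code (x axis), coloured by plate, with DMSO of the same exposure at the right and the log of the mean CPM per code as a line. Values climb from D4 to D1 in 2-tert-butyl-4-methoxyphenol, up to 320 CPM, and stand highest at D1 in 3,4-dichlorophenyl isocyanate.

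ero1a rose towards D1 in 3,4-dichlorophenyl isocyanate, a reactive aryl isocyanate. Its D1 pools read 39.4, 36.1 and 22.1 CPM (24, 19 and 13 counts), and the DMSO pools 3.58, 8.25 and 13.7 CPM. All 3 D1 pools were above all 3 DMSO pools. D2 read 5.17, 22.0 and 17.3 CPM and overlapped DMSO, as did the codes from D3 to D8. The slope was 0.21 ± 0.06 per step (adjusted p = 0.00860, edgeR, Benjamini-Hochberg over 1507 genes, 18.7% of which were called). What led to ero1a is not recorded, so these values may have had a part in its choice, and the p is to be read with that limit. D1 against DMSO gave a log2 difference of 1.78 ± 0.52 with an adjusted p of 0.111, which did not pass. Without D1 the slope was 0.12 ± 0.08 (adjusted p = 0.474). It was 0.17 ± 0.07 without plate A, 0.17 ± 0.07 without plate B, and steeper without plate C. Without plate A or B it lay within 1 SE of the slope over all plates, with most libraries shared. Neither of these passed with fewer libraries (adjusted p = 0.0704 and 0.187, edgeR). Intestine markers at D1 were 640 to 1126 CPM, against 1278 to 1955 CPM in DMSO. Markers of skin with cartilage and bone were 41485 to 47368 CPM there, against 57800 to 60303 CPM in DMSO. Blood markers were 91.8 to 122 CPM at D1, against 33.0 to 82.5 CPM in DMSO. Markers of exocrine pancreas, liver and nervous system overlapped DMSO there. The part of these markers in the ero1a values was not tested.

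In the other 10 chemicals ero1a passed no test for a trend (0 of 10 by edgeR or DESeq2, 1 of 10 below an unadjusted p of 0.05 with each). Hardly any gene passed there, with 4 of 15132 slopes of all genes called by edgeR and 6 by DESeq2. Fexofenadine had the largest slope, 0.20 ± 0.09 (adjusted p = 0.609), with D1 pools of 15.9, 13.9 and 8.96 CPM and D8 pools of 3.98, 2.53 and 1.48 CPM. cis-Nonachlordane had the lowest, -0.16 ± 0.08 (adjusted p = 0.700). At D4 of gabapentin the pools read 7.96, 38.9 and 18.8 CPM, a log2 difference of 1.56 ± 0.59 with an adjusted p of 0.999.

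After caffeine, ero1a read higher than DMSO in 13 of 18 plate pairs, with means of 14.4 ± 7.25 and 9.49 ± 5.34 CPM (n = 18 each). The QA libraries gave 1.74 to 32.1 CPM for caffeine (median 14.2) and 2.15 to 21.5 CPM for DMSO (median 8.84), and 3 of 8 caffeine libraries exceeded the highest DMSO library. ero1a was too low for the filter of both fits, in which 4.26% of genes on the plates and 1.28% in the QA set were called. Without the filter the log2 differences were 0.62 ± 0.25 (adjusted p = 0.207, edgeR) and 0.78 ± 0.35 (adjusted p = 0.468), and neither passed.

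The 5 genes most like ero1a across the 322 plate libraries were aldoaa (r = 0.57, rho = 0.48), ldha (0.57, 0.38), ndrg1a (0.50, 0.39), znf395a (0.46, 0.38) and pfklb (0.45, 0.33). aldoaa (aldolase), pfklb (phosphofructokinase) and ldha (lactate dehydrogenase) encode glycolytic enzymes, and ndrg1a is a known hypoxia-induced gene in mammals. Without the libraries of 2-tert-butyl-4-methoxyphenol r was 0.45, 0.36, 0.34, 0.36 and 0.30 (300 libraries). The order there was aldoaa, ldha, znf395a, hbae5 and ndrg1a, so that hbae5, a haemoglobin gene (r = 0.35) and member of the blood marker list, took the place of pfklb. The correlation of ero1a with summed markers was 0.39 for blood, -0.37 for intestine, -0.30 for nervous system, -0.29 for skin with cartilage and bone, -0.27 for exocrine pancreas and 0.07 for liver.

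The libraries of 2-tert-butyl-4-methoxyphenol, where ero1a is highest, helped to pick these 5 genes, so their slopes there are a description, with no test. ldha read 9303 CPM at D1 and 4970 to 6386 CPM at D2, against 1667 to 2641 CPM in DMSO, with a slope of 0.30 ± 0.02 that was 0.24 without D1 and 0.23 without plate A. aldoaa had slopes of 0.27, 0.26 and 0.24 in these 3 fits. The slope of ndrg1a was 0.29, then 0.15 without D1, and 0.05 without plate A. In the isocyanate the slopes of the 5 genes were smaller, from -0.01 for ndrg1a to 0.05 for pfklb and znf395a.

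Of 10 hypoxia-responsive genes on the panel, 9 were tested in 2-tert-butyl-4-methoxyphenol, where 7 rose and 0 fell (median slope 0.20, against -0.0049 for all genes, of which 27.2% were called). DESeq2 called 6. Among the 7 were vegfab, the angiogenic growth factor (0.20 ± 0.02), and slc2a1b, a glucose transporter (0.25 ± 0.06). So were hif1ab (0.11 ± 0.02, but 0.04 without D1) and hif1al (0.13 ± 0.02, but 0.05 without D1). Another was adma (0.46 ± 0.14), which passed the filter only with the single D1 pool and was not tested without D1 or without plate A. ldha and ndrg1a, counted as risers too, belong to the 5 genes picked above partly through these libraries. The counts of risers in this chemical are therefore a description. The tested genes that did not pass were bnip3 (0.02 ± 0.02) and igfbp1a (0.19 ± 0.08). The slope of igfbp1a was -0.02 without D1 and -0.23 without plate A. Without D1, 3 of 8 rose (ldha, ndrg1a and vegfab), and 4.69% of all genes were called. Without plate A, 2 of 8 rose (ldha and vegfab), with 3.10% of all genes called. In 3,4-dichlorophenyl isocyanate, with 18.7% of all genes called, 1 of 8 rose, vegfab, at 0.10 ± 0.02 (adjusted p = 7.05e-04), and its slope without D1 was also 0.10 (adjusted p = 0.0286). Of 7 cytosolic heat shock genes, 3 rose in the former chemical and 2 in the latter, and 0 fell in either, where 27.2% and 18.7% of all genes were called.

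Other ER folding and unfolded protein response genes were called in 2-tert-butyl-4-methoxyphenol about as often as all genes. Of 25 on the panel, 23 were tested there, and 4 rose towards D1, 3 fell and 16 did not pass, where 27.2% of all genes were called, with a median slope of 0.0026 for the list and -0.0049 for all genes. The risers were cebpb, a transcription factor gene (0.35 ± 0.04), sesn2 (0.31 ± 0.03) and slc7a11 (0.29 ± 0.03), which are targets of the stress factor ATF4 in mammals, and xbp1, a transcription factor of the unfolded protein response (0.09 ± 0.03). The genes that fell were calr, the calcium-binding chaperone calreticulin (-0.16 ± 0.02), sec11a, a signal peptidase subunit (-0.15 ± 0.04), and pdia6 (-0.06 ± 0.02). The partner chaperones hyou1 (0.01 ± 0.03) and canx (-0.05 ± 0.02), the oxidase ero1b (0.08 ± 0.08) and p4hb (0.0026 ± 0.02) did not pass.

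These calls were lost without the single D1 pool, as were most calls of all genes. cebpb read 4451 CPM there, 183 to 1291 CPM at D2 and 269 to 333 CPM in DMSO. sesn2 read 328 CPM at D1, 38.4 to 79.1 CPM at D2 and 20.3 to 40.3 CPM in DMSO. slc7a11 read 476 CPM, 64.5 to 144 CPM and 41.4 to 68.1 CPM, and calr 242 CPM, 502 to 608 CPM and 660 to 766 CPM. At D2 every calr pool was below DMSO and every pdia6 pool above it (287 to 335 against 217 to 274 CPM), the opposite side from the slope of pdia6, whose D1 pool read 154 CPM. Neither passed at D2, while slc7a11 was called (1.02 ± 0.24 log2, adjusted p = 0.00858, edgeR). Without D1, or without plate A, which holds that pool, 0 genes of the list rose and 0 fell. Of all genes, 4.69% were called without D1 and 3.10% without plate A, so the 0 of the list lies near those shares.

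**Figure D5:**
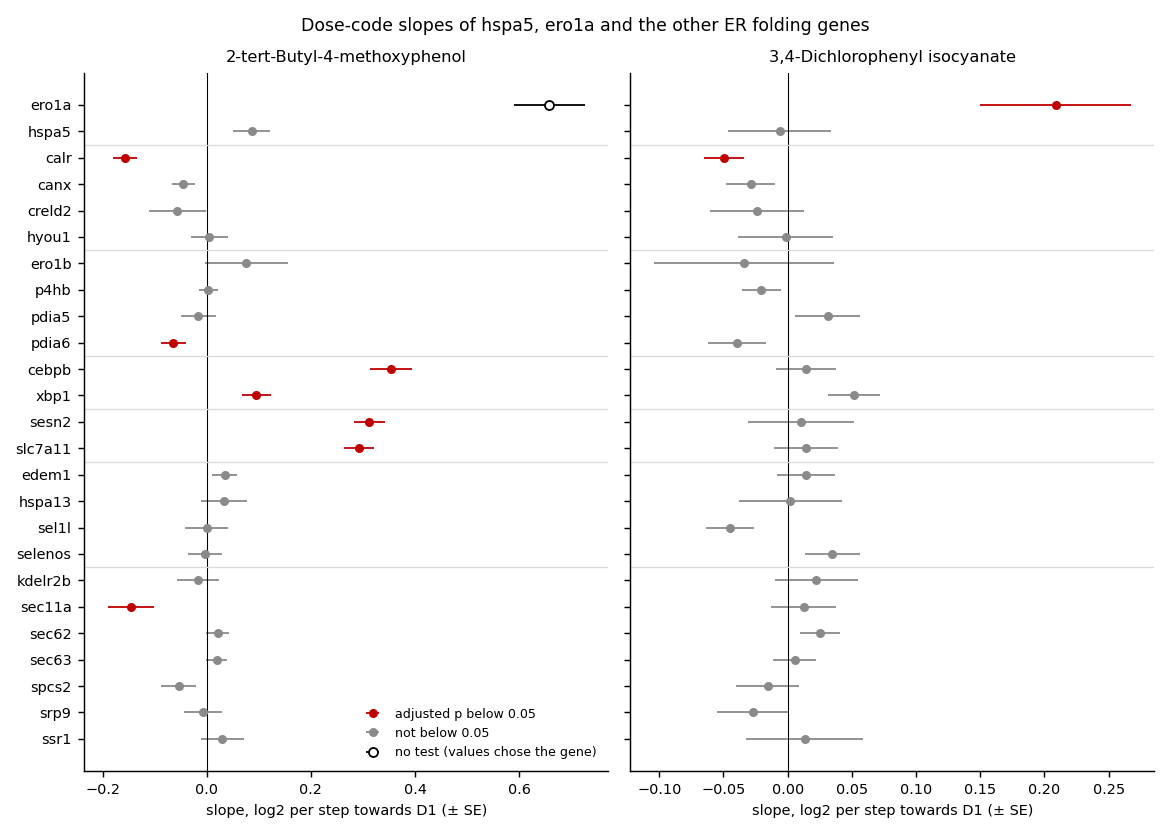
Slopes over the dose code in log2 units per step towards D1, with SE (x axis; the 2 panels have their own scale), for hspa5, ero1a and 23 other ER folding genes (y axis, grouped by role) in 2-tert-butyl-4-methoxyphenol and 3,4-dichlorophenyl isocyanate. Red points have an adjusted p below 0.05, and ero1a stands farthest to the right in both panels (0.66 and 0.21).

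In 3,4-dichlorophenyl isocyanate 1 of the 23 fell, calr (-0.05 ± 0.02, adjusted p = 0.0202, edgeR), and 0 rose, where 18.7% of all genes were called. Its D1 pools read 638 to 655 CPM and its DMSO pools 760 to 834 CPM. The call was lost without D1 and without any of the 3 plates in turn. It held with the plate letter as a block (-0.05 ± 0.01, adjusted p = 0.00612, edgeR). xbp1 read 211 to 279 CPM at D1 and 145 to 166 CPM in DMSO, with a slope of 0.05 ± 0.02 (adjusted p = 0.0661). With the plate letter as a block xbp1 passed (adjusted p = 0.0271). In the other 10 chemicals 0 of 230 slopes and 0 of 1840 differences from DMSO were called, by edgeR or DESeq2, with 14 and 78 below an unadjusted p of 0.05 by edgeR. Of all genes there, edgeR called 4 of 15132 slopes and 2 of 121056 differences, with 838 and 4590 below an unadjusted p of 0.05. DESeq2 called 6 and 9, so the 0 of the list lies near the share of all genes. Caffeine called 0 of 23 on the plates and 0 of 23 in the QA set by either tool (3 and 2 below an unadjusted p of 0.05). Of all genes, edgeR called 4.26% on the plates and 1.28% in the QA set, so 0 of 23 is near that share. The nearest to a call was calr on the plates, at -0.17 ± 0.05 log2 (adjusted p = 0.0579).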

How the data were processed

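TempO-Seq (ligated detector oligonucleotides, PCR, sequencing) was run on homogenates of pooled larvae, per the labels' protocols. The authors deposited raw counts, not normalized, for 1832 probes in 338 libraries, per the file headers and the whole-number values. The submitters' processing notes name bcl2fastq. For aligner, probe sequences and genome build the sources used here give nothing, so no coordinates or sequences are printed. Each of hspa5 and ero1a has 1 probe, and a near-identical copy of a gene could share it. RefSeq's gene table holds 1721 of the 1829 symbols, both members included.

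Groups came from the treatment labels. The titles of 26 libraries name DMSO while the treatment label says caffeine, and these were taken as caffeine. The members and gene lists were chosen with earlier results of these data known. TMM-scaled counts entered edgeR's quasi-likelihood F-test (edgeR 4.0.16 with limma 3.58.1 under R 4.3.3). Genes had to pass filterByExpr (minimum count 10), and p-values were adjusted by Benjamini-Hochberg, with calls at 0.05. All libraries of an exposure shared a fit with group means, and caffeine was fitted over the 18 and 18 plate libraries with exposure as a term and over the 16 QA libraries. All codes of both chemicals of an exposure share the same 3 DMSO libraries. ero1a passed the filter of an exposure through at least 4 libraries at the cutoff, which in that of 2-tert-butyl-4-methoxyphenol included its 4 pools of D1 and D2. DESeq2 1.42.0 was an alternative. Likeness used log2 CPM with a prior count of 2. Named genes were the members, the called genes of the ER list (at most 8 by size), and the 5 genes of highest r per member. Other genes of the lists, given as values, were picked after their values were seen. Plates with the same letter were checked as pairs. The median correlation of deviations was 0.03 to 0.10 within a plate letter, and 12.6% to 50.3% of pairs exceeded 0.1, so pools of a plate deviated together only weakly. The sample descriptions carry the plate letter, and the protocol puts each exposure on 3 plates, so the letter was taken to pair pools by plate and the blocked value is given where it changes a call. The most alike pair of replicate libraries differed by more than sampling noise (chi-square per degree of freedom 1.42), and no intervals for counting error are given, since no molecular identifiers are described.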

Additional observations from a re-analysis of the deposited data

How the results depend on the processing

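Over 48 results and 293 alternative fits, 262 counted as unchanged. That meant the same direction and side of the threshold or, for the hypoxia list, a number of risers close to that of the main fit. The trend of ero1a in 3,4-dichlorophenyl isocyanate held under DESeq2, without a filter and with the chemical and DMSO only, but fell to 0.12 without D1 and ranged from 0.17 to 0.29 when each plate was left out. The ero1a slope in 2-tert-butyl-4-methoxyphenol was 0.47 without D1 and 0.36 to 0.72 over left-out plates, and its D3 difference 0.97 to 2.30. For hspa5 there the slope ranged from 0.029 to 0.11.

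Slopes near 0 changed sign. For hspa5, leaving out a plate gave -0.038 to 0.026 in 3,4-dichlorophenyl isocyanate, -0.036 to 0.077 in fexofenadine, -0.025 to 0.043 in gabapentin, -0.036 to 0.028 in metribuzin-DA and -0.057 to 0.0011 in cis-nonachlordane. Without D1 it was -0.0015 in fexofenadine and 0.012 in fipronil amide. For ero1a, leaving out a plate gave -0.029 to 0.15 in 4-chlorophenyl methyl sulfoxide, -0.10 to 0.042 in hydrochlorothiazide (0.081 without D1) and -0.087 to 0.068 in metolachlor OA. The ER list in 2-tert-butyl-4-methoxyphenol had 0 risers and 0 fallers without D1, and 0 to 4 and 0 to 2 over left-out plates. In the isocyanate it had 0 fallers without D1 and 0 with any plate left out. The hypoxia list had 3 risers without D1 and 2 to 7 over left-out plates in the former, and 0 to 1 in the latter. Of all genes, 4.69% were called in 2-tert-butyl-4-methoxyphenol without D1 and 3.10% without plate A. In the isocyanate 3.19% were called without D1, and 5.67% to 15.8% over left-out plates. The cause was not tested.

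With the plate letter as a replicate block the ero1a slope in the isocyanate was 0.21, that in 2-tert-butyl-4-methoxyphenol 0.64, and the ER list had 1 riser in the isocyanate, xbp1. The hypoxia list had 8 risers in 2-tert-butyl-4-methoxyphenol with the block, against 7. The block changed no call of hspa5 or ero1a. It raised the share of all genes called in the isocyanate to 24.2%, against 18.7% without it, and the share in 2-tert-butyl-4-methoxyphenol was higher with it too. The fits of both lists under other settings were chosen after seeing the data. With the chemical and DMSO only, ero1a was below the filter for fexofenadine, cis-nonachlordane, hydrochlorothiazide and metolachlor OA. Low counts of ero1a, the single D1 pool of 2-tert-butyl-4-methoxyphenol and the tie between code and plate row limit these results.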
